A study of Mus musculus with 16 samples.

Results

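The effect of losing Cul4b was compared between a pair of small intestinal organoid models of C57BL/6 mice. In the first, the floxed allele was deleted in the intestinal epithelium from a pVillin-Cre transgene, so that the organoids started from epithelium that already lacked the gene (Cul4bfn/Y in WT, pVillin-Cre with Cul4bfn/Y in KOIEC). In the second, a CAG-driven, tamoxifen-dependent CreERT2 removed the gene from organoids on induction with 4-OHT. The genotypes there were Cul4bfn/Y in WT, where CreERT2 may or may not be present, and CAG-CreERT2 with Cul4bfn/Y in KOCAG. Fn marks the floxed allele, and the Y shows that the animals were male and carried a single copy of this X-linked gene. The comparison took 8 of the 16 libraries of the series, 2 KO and 2 WT libraries in each experiment. Its members were all genes that the tables of both experiments list under the same Ensembl identifier, 52525 genes, of which 14957 had enough reads to test. For each gene the log2 fold change of KO over WT in KOCAG was subtracted from that in KOIEC, so a negative difference of responses means a lower response in KOIEC. Whether the WT organoids of the KOCAG experiment carried CreERT2 or received 4-OHT, and which passage each experiment used, is not stated in the sources used here. The study's methods describe a differentiation medium and an expansion medium with added Wnt3a, and do not say in which the sequenced organoids grew. Time since deletion, Cre driver, experiment, table and any difference in medium therefore cannot be told apart from the model. WT levels are not compared across experiments. The study's methods call the libraries of a group biological replicates but do not say whether they came from separate animals or from separate cultures of the same animal, so p-values measure only the spread between these libraries, which may be technical.

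CUL4B is the scaffold of a CRL4B ubiquitin ligase, which joins the adaptor DDB1 and the RING protein RBX1 to substrate receptors and marks proteins with ubiquitin. In the small intestine, stem cells at the crypt base express Lgr5 and Ascl2 and are kept by Wnt signals, part of which comes from the Paneth cells beside them. Paneth cells store antimicrobial products such as alpha-defensins, lysozyme and angiogenin 4. After injury the epithelium can enter a regenerative state with genes of the fetal gut, among them Ly6a, Clu and Anxa1, and organoids grown from crypts contain the stem, Paneth and differentiated epithelial cells in a single culture.

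Library totals ran from 15006730 to 16881395 counts in the KOIEC experiment and from 7348191 to 10462275 counts in the KOCAG experiment, so that 3 counts corresponded to 0.178 to 0.408 CPM, the counts scaled to a common library size. The 15 epithelial markers summed to between 11763 and 17341 CPM in every library. Markers of other tissues were near the detection limit: 1 of 18 fibroblast and mesenchymal markers passed the filter on low counts, against 4 of 20 immune and 7 of 15 endothelial and neural markers, and 7 immune markers had no read in any of the 8 libraries. The mesenchymal sums were 2.13 to 2.49 CPM in WT and 3.59 to 11.3 CPM in KOIEC. In the KOCAG experiment they were 2.37 to 2.53 CPM in WT and 3.92 to 5.72 CPM in KOCAG. Fn1 alone was at 6.11 CPM in the second KOIEC library. The immune sums were 3.27 to 5.39 CPM in WT and 4.53 to 5.42 CPM in KOIEC. In the KOCAG experiment they were 5.39 to 7 CPM in WT and 10.3 to 12.1 CPM in KOCAG. The part of these markers in the results was not tested. In bulk organoids, fewer cells of a type and less RNA per cell cannot be told apart. The KOIEC libraries also stood apart from each other. Olfm4, a stem cell marker, was at 1093 CPM in the first KOIEC library and 14.6 CPM in the second, against 1889 and 3025 CPM in their WT. The 39 DNA replication genes had a median log2 deviation from the WT mean of -0.03 in the first and -1.72 in the second, and list medians that rest on these libraries are given without each of them below. Across genes, the deviations of the KO libraries from their WT mean correlated with Pearson's r of 0.212 between the KOIEC libraries and 0.823 between the KOCAG libraries. The biological coefficient of variation was 0.280 in the KOIEC experiment and 0.0815 in the KOCAG experiment.

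To ask how far both deletions moved the same genes, the responses were set side by side for all genes tested. Of 14957 genes, 9183 (61.4%) had the same sign in both models, and the responses correlated across genes with Pearson's r of 0.212 and a Spearman correlation of 0.276, where genes are not independent replicates. Fitted by itself, the KOIEC experiment gave a single gene past adjusted p under 0.05 in edgeR's quasi-likelihood test, Cul4b (0.00717% of the genes tested), and 650 genes at an unadjusted p under 0.05. Fitted by itself, the KOCAG experiment gave 2455 higher genes (18.1%) and 1823 lower genes (13.4%), of which 865 (6.36%) and 304 (2.24%), all also tested jointly, changed at least 2-fold. The shares of 18.1% and 13.4% are the background for list members that rose or fell in KOCAG below. Of all 14957 genes, 4395 were higher and 4788 lower in both models. A further 2912 were lower in KOIEC and higher in KOCAG, and 2842 were the reverse. The 865 genes that rose at least 2-fold in KOCAG had a median log2 fold change of 1.53 there and 0.26 in KOIEC, and 68.0% had the same sign. In 200 of them both KOIEC libraries lay above both WT libraries, and in 74 both lay below, while over all genes tested 19% and 19.5% lay above and below in this way. The 304 genes that fell had medians of -1.37 and -0.20, and 61.2% had the same sign, with 96 below and 21 above their WT libraries in KOIEC. The KOIEC libraries did not behave alike in these sets. For the genes that rose in KOCAG the median deviation was -0.06 in the first KOIEC library and 0.49 in the second, and for those that fell it was -0.51 and 0.04.

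**Figure D1:**
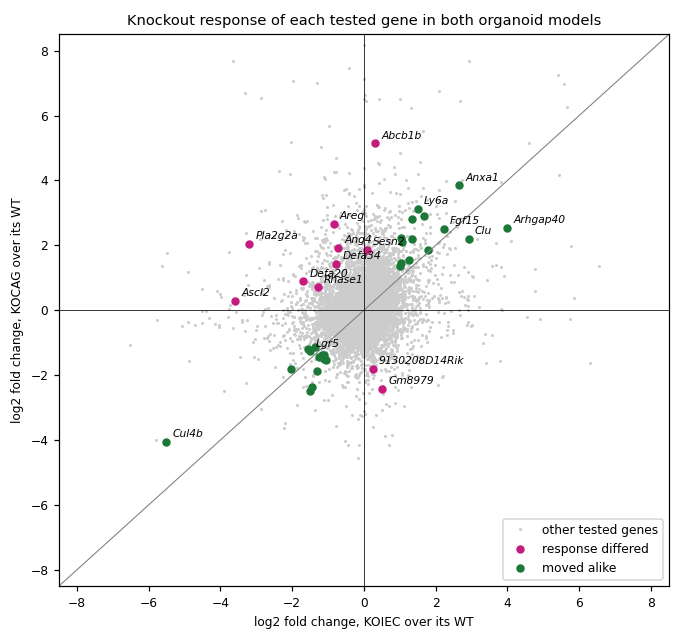
Log2 fold change of KO over WT in KOIEC (x axis) against that in KOCAG (y axis) for the genes tested, with the 11 genes whose response differed in pink and the 27 genes that moved alike in green; 2 genes lie outside the plotted range. The cloud is wide around the diagonal, with Pearson's r of 0.212 across genes.

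The test of the difference itself called 11 genes at adjusted p under 0.05 and a difference of at least 1 on the log2 scale. In 9 of them (0.0602% of the genes tested) the response was more negative in KOIEC, and in 2 (0.0134%) it was more positive. The genes of a more negative response were Pla2g2a, Abcb1b, Ascl2, Areg, Ang4, Defa20, Defa34, Rnase1 and Sesn2, and the other two were the pseudogenes Gm8979 and 9130208D14Rik. A further 27 genes moved alike: their mean response passed the test, each model showed at least a 2-fold change of the same sign, and KO and WT libraries did not overlap in either. Of these, 14 were higher in KO (0.0936%) and 13 lower (0.0869%). These counts depend on the libraries: without any 1 of the 6 libraries other than the KOIEC pair no gene was called as differing in edgeR's test, with 1027 to 1505 genes at an unadjusted p under 0.05, and Cul4b alone remained among the genes that moved alike. With 1 KOIEC library left out more genes were called, but that group then held 1 library and added nothing to the estimated spread. The fit took its spread from the other groups. The coefficient of variation was 0.0815 in the KOCAG experiment against 0.280 in the KOIEC experiment. Those counts leave out the variation between the KOIEC libraries and are not given. With the median gene, the 95% interval of the difference reached 0.81 on the log2 scale to each side, so that differences of 2-fold or less were mostly not detectable at this depth and number of libraries. In simulated counts with the same groups the test called 10% of genes that differed by 1 on the log2 scale, 78% at 2 and 98% at 3 and 4. These shares describe the simulated counts only. They do not measure the power in the organoid libraries, where larger differences given below, those of Tnfrsf19, Gvin1 and Reg3b, were not called.

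The promoter stretches of 4 genes whose response differed are shown to let their sequences be read beside their values: Ascl2, Areg, Ang4 and Defa20, from the stem cell, growth factor and Paneth cell groups. Each holds 250 bases before and 50 after the gene's start, 5′ to 3′ on the gene's strand, from RefSeq on GRCm38.p6, and capitals mark 5 motifs searched on both strands. TCF/LEF factors of the Wnt pathway were searched as CTTTGNT, where N stands for any base. The AP-1 factors of growth and stress signals were searched as TGANTCA. The box that places the start of transcription was searched as TATAAA. The promoter box bound by NF-Y was searched as CCAAT. The cAMP response element (CRE) was searched as TGACGTCA. No match of the CRE pattern is one of AP-1, since the patterns differ in their spacing.
Ascl2, chr7:142969215-142969514, minus strand: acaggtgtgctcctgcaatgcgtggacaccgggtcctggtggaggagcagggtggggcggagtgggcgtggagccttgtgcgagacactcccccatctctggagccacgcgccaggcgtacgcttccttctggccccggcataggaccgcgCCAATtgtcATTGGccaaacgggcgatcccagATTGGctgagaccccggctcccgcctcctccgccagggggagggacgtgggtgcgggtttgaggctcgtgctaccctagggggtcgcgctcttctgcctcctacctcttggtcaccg
Areg, chr5:91139349-91139648, plus strand: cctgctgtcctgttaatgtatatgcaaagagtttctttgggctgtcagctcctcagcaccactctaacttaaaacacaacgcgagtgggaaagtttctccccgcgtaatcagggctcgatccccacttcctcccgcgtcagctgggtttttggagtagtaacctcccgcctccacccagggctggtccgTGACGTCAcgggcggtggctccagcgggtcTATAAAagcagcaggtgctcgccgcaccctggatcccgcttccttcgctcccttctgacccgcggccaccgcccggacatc
Ang4, chr14:51773541-51773840, minus strand: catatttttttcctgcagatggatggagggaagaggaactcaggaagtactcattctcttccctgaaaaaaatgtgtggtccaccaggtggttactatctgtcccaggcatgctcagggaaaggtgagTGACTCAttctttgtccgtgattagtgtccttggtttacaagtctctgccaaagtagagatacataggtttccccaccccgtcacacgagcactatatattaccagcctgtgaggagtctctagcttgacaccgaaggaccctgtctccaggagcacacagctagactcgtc
Defa20, chr8:21509008-21509307, plus strand: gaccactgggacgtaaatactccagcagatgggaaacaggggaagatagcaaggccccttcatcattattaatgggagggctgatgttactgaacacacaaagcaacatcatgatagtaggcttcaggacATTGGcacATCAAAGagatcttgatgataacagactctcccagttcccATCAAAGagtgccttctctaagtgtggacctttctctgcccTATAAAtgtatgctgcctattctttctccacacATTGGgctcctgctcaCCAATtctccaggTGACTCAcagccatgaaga
Ascl2 held 3 CCAAT boxes, a motif found in 37.4% of 32851 RefSeq promoters of this length. Areg held a TATA box and a CRE, found in 13.6% and 1.79% of promoters. Ang4 held an AP-1 match, found in 7.81%. Defa20 held 2 TCF/LEF matches, a motif found in 18.6% of promoters, together with a TATA box, an AP-1 match and 3 CCAAT boxes. A match is a stretch of letters and not a bound site. Of the genes named above, 7 of the 11 that differed and 16 of the 27 that moved alike had a promoter in the table.

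Paneth cell products made up the largest group among the 9 genes, and they were low in KOIEC and high in KOCAG. Pla2g2a (chr4:138831857-138835186, plus strand, GRCm38) encodes a secreted phospholipase with antibacterial activity and is annotated as a polymorphic pseudogene, since some mouse strains carry a broken copy. Whether the copy in either experiment is intact was not tested, so its RNA level does not speak for working enzyme. It was at 8.46 and 10.8 CPM in WT and 1.36 and 0.717 CPM in KOIEC, but at 7.12 and 8.26 CPM in WT and 32.1 and 31.5 CPM in KOCAG. The groups did not overlap in either experiment, and the directions were opposite. The log2 fold changes were -3.19 and 2.05, with a difference of -5.24 (95% interval -6.21 to -4.27, adjusted p = 0.0231). Ang4 (chr14:51763878-51773590, minus strand), the ribonuclease angiogenin 4 that Paneth and goblet cells secrete against bacteria, stood at 191 and 159.9 CPM in WT and 109.6 and 104 CPM in KOIEC. In the other experiment it stood at 90.4 and 71.5 CPM in WT and 341 and 277 CPM in KOCAG. Its difference of -2.65 (-3.21 to -2.08, adjusted p = 0.0372) joined a lower level in KOIEC to a rise in KOCAG.

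A pair of alpha-defensins, the small antimicrobial peptides of Paneth cell granules, passed the same test. Defa20 (chr8:21509258-21510237, plus strand) was at 43.9 and 50.5 CPM in WT and 17.1 and 12.1 CPM in KOIEC, against 66.5 and 60.4 CPM in WT and 108 and 127 CPM in KOCAG. Its log2 fold changes were -1.69 and 0.89, with a difference of -2.58 (-3.20 to -1.97, adjusted p = 0.0375). Defa34 (chr8:21665797-21666732, plus strand) was at 17.1 and 20.1 CPM in WT and 9.89 and 11.9 CPM in KOIEC, against 45.1 and 47.9 CPM in WT and 129 and 123 CPM in KOCAG. Its difference was -2.21 (-2.69 to -1.72, adjusted p = 0.0372). Alpha-defensin genes are near-identical neighbours on chromosome 8, so reads could be split between copies and the value of a single member is uncertain. Rnase1 (chr14:51144998-51146785, minus strand), a secreted ribonuclease of the same superfamily as Ang4, went from 27.3 and 30.8 CPM in WT to 13.3 and 10.6 CPM in KOIEC and from 36.2 and 38.2 CPM in WT to 59.3 and 61.5 CPM in KOCAG. Its groups were again apart in both experiments in opposite directions, with a difference of -1.98 (-2.49 to -1.47, adjusted p = 0.0437).

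The Paneth cell list as a whole showed the same contrast, and its 3 called genes (Pla2g2a, Ang4, Defa20) are part of it. Of 24 genes in the list 22 were tested, and 15 were lower in KOIEC and higher in KOCAG, as were 2912 of all 14957 genes tested. In the KOCAG experiment fitted by itself 15 rose and 2 fell, where 18.1% and 13.4% of all genes did. None passed the test in KOIEC, where the edgeR fit called no gene but Cul4b. The median log2 fold change was -0.82 in KOIEC and 0.81 in KOCAG, and the median difference was -1.75 against -0.04 over all genes tested. Without the first KOIEC library the median difference was -1.58 and without the second -1.65, close to the value with both. In 10 of the 22 genes KO and WT libraries were apart in both experiments, downward in KOIEC and upward in KOCAG, where 3.37% of all genes tested did so. Chosen after their values were seen, lysozyme (Lyz1) and matrilysin (Mmp7, which activates alpha-defensins) give the scale of the abundant products. Lyz1 was at 877 and 1679 CPM in WT and 626 and 911 CPM in KOIEC, which overlap, and at 964 and 800.3 CPM in WT and 1765 and 1630.2 CPM in KOCAG. Its difference of -1.68 (-2.72 to -0.64) did not pass the test (adjusted p = 0.241). Mmp7 ranged from 14.7 to 40.8 CPM in KOIEC and from 38.1 to 47.3 CPM in its WT, and it rose from 62.9 and 60.5 to 190.3 and 168 CPM in KOCAG.

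Ascl2 (chr7:142966829-142969264, minus strand), the transcription factor that sets the identity of crypt base stem cells downstream of Wnt, gave the third largest difference. It was at 28.4 and 28.4 CPM in WT and at 3.10 and 1.58 CPM in KOIEC, whereas in the other experiment it was at 12.4 and 14.7 CPM in WT and 16 and 17.3 CPM in KOCAG. The levels in KOIEC were thus far below WT in both libraries, while in KOCAG they lay slightly above WT without passing that experiment's own test (adjusted p = 0.161). The log2 fold changes were -3.59 and 0.30, with a difference of -3.89 (-4.84 to -2.93, adjusted p = 0.0375). Lgr5 (chr10:115450311-115587780, minus strand), the R-spondin receptor that marks the same cells, moved alike in both models. It was at 204 and 244 CPM in WT and 83.5 and 74.4 CPM in KOIEC, and at 464 and 492 CPM in WT and 171 and 227 CPM in KOCAG. The log2 fold changes of -1.50 and -1.26 averaged -1.38 (-1.67 to -1.10, adjusted p = 0.0229).

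Stem cell markers as a list were lower in KOIEC than in KOCAG at the median, by a size that moved with the KOIEC library. All 22 genes of the list were tested, with a median log2 fold change of -1.17 in KOIEC and -0.16 in KOCAG and a median difference of -1.17. Of these 15 were lower in both models and 6 were lower in KOIEC and higher in KOCAG. In KOCAG's own fit 8 fell and 1 rose, where 13.4% and 18.1% of all genes did. The median difference was -1.77 without the first KOIEC library and -0.66 without the second. Olfm4, whose KOIEC libraries are given above, had a difference of -2.03 with an interval of -6.41 to 2.35, and was at 1477 and 1929 CPM in WT and 1453 and 1680.1 CPM in KOCAG. Wnt targets and components, which share 8 genes with the stem cell list, had medians of -0.85 in KOIEC and 0.06 in KOCAG over 22 of 26 genes, a median difference of -0.95 that was -1.55 and -0.42 without the first and the second KOIEC library. In 8 of these 22 genes the libraries were apart downward in KOIEC and upward in KOCAG, where 3.37% of all genes tested did so. Nkd1, Sp5 and Tnfrsf19, of the Wnt and stem cell lists and chosen after their values were seen, had differences of -3.72 (adjusted p = 0.124), -2.39 (0.133) and -4.82 (0.252), none of which passed.

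Areg (chr5:91139599-91148432, plus strand) encodes amphiregulin, a ligand of the EGF receptor that injured epithelium makes. It was at 29.7 and 34.7 CPM in WT and 17.4 and 18.6 CPM in KOIEC, and at 18.7 and 16.5 CPM in WT and 126 and 97 CPM in KOCAG. The log2 fold changes of -0.84 and 2.66 differed by -3.50 (-4.07 to -2.92, adjusted p = 0.0199), the smallest adjusted p of the 11 genes. Among 16 tested genes of the EGF family, Areg was the only one called, and the median difference of the list was -0.23.

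Sesn2 and Abcb1b rose in KOCAG while both KOIEC libraries lay near their WT. Sesn2 (chr4:132492032-132510501, minus strand), the stress protein sestrin 2 and a target of p53, was at 49.7 and 47.3 CPM in WT and 55.6 and 47.7 CPM in KOIEC, against 19.2 and 19.0 CPM in WT and 71.9 and 67.6 CPM in KOCAG. The response was 0.09 in KOIEC and 1.87 in KOCAG, with a difference of -1.78 (-2.20 to -1.35, adjusted p = 0.0375). Abcb1b (chr5:8798147-8866315, plus strand), a P-glycoprotein efflux pump, was at 1.36 and 1.21 CPM in WT and 1.55 and 1.65 CPM in KOIEC. In the other experiment it had 2 and 3 counts in WT and 89 and 112 counts in KOCAG, a ratio of 36.5 (counting interval 15.4 to 114). The difference in log2 fold change was -4.83 (-6.02 to -3.65, adjusted p = 0.0375).

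The 25 p53 targets, which include Sesn2, were higher in KOCAG in nearly every case and scattered around 0 in KOIEC. In KOCAG's own fit 23 rose and 1 fell, where 18.1% and 13.4% of all genes did. In KOIEC 12 were higher and 13 lower, with a median of -0.01 against 1.21 in KOCAG. The median difference of -1.40 was -1.25 and -1.32 without the first and the second KOIEC library. The cell cycle inhibitor Cdkn1a, the p53 ligase Mdm2 and the stress cytokine Gdf15, chosen after their values were seen, show the range. Mdm2 was at 56.6 and 67.1 CPM in WT and 70.8 and 72.8 CPM in KOIEC, and it rose from 44.2 and 49.2 to 111 CPM in both KOCAG libraries, with a difference of -1.03 (-1.45 to -0.62, adjusted p = 0.133). Cdkn1a spread from 151 to 324 CPM between the KOIEC libraries around its WT of 199 and 229 CPM, and rose from 106 and 118 to 359 and 298 CPM in KOCAG. Gdf15 differed by -2.80 (-3.58 to -2.01, adjusted p = 0.0625), just short of the threshold.

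Both genes with a more positive response in KOIEC were unprocessed pseudogenes on chromosome 7. They lie in the wider region of Gvin1 (chr7:106156556-106215326, minus strand), a gene of the very large interferon-inducible GTPase family. Gm8979 (chr7:106076751-106084046, minus strand) was at 214 and 245 CPM in WT and 252 and 402 CPM in KOIEC, but at 1233 and 1040.3 CPM in WT and 210.4 and 212 CPM in KOCAG. Its difference was 2.94 (2.20 to 3.68, adjusted p = 0.0395). 9130208D14Rik (chr7:105824223-105831515, minus strand) was at 497 and 558 CPM in WT and 565 and 682 CPM in KOIEC, and at 829 and 738 CPM in WT and 208 and 242 CPM in KOCAG, a difference of 2.04 (1.54 to 2.54, adjusted p = 0.0375). In both genes KOCAG fell several-fold while the KOIEC libraries lay at or above WT. These copies resemble each other and Gvin1, so reads may be shared among them. Gvin1 itself was at 12 and 13 CPM in WT and 14.9 and 28.3 CPM in KOIEC, and at 89.0 and 39.9 CPM in WT and 4.91 and 4.02 CPM in KOCAG (difference 4.64, 3.15 to 6.13, adjusted p = 0.0759). Irgm1, an immunity-related GTPase, was at 25.7 and 24.9 CPM in WT and 17.8 and 22 CPM in KOIEC, and at 18.8 and 19.1 CPM in WT and 22.2 and 19.6 CPM in KOCAG. Its difference of -0.49 had an interval of -1.04 to 0.07 (adjusted p = 0.472).

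**Figure D2:**
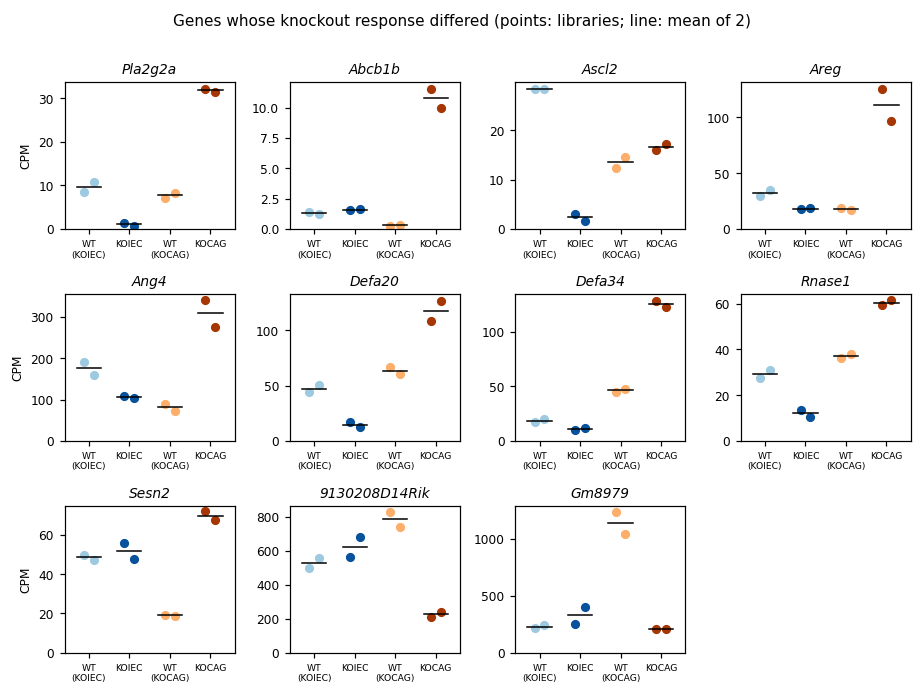
TMM-scaled CPM (y axis, from 0) of the 11 genes whose response differed, with 1 point per library, a line at the mean of each group's 2 libraries, and WT and KO side by side in the KOIEC and the KOCAG experiment. Pla2g2a, for example, lies between 0.717 and 1.36 CPM in KOIEC and between 31.5 and 32.1 CPM in KOCAG, on opposite sides of its WT libraries.

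Cul4b (chrX:38533274-38576196, minus strand) was the targeted gene and was low in every KO library. It was at 89.3 and 78.5 CPM in WT and 1.81 and 1.86 CPM in KOIEC, and at 68.4 and 65.7 CPM in WT and 3.10 and 4.82 CPM in KOCAG. The log2 fold changes were -5.51 and -4.05, with a mean of -4.78 (adjusted p = 7.63e-05) and a difference of -1.45 (-2.14 to -0.76) that did not pass the test (adjusted p = 0.157). The 17 genes of the CRL4B list, with adaptors, substrate receptors and regulators, were all tested, and Cul4b was the only one called in either direction. Its close paralog Cul4a differed by 0.12 between models (-0.21 to 0.46), the adaptor Ddb1 by 0.03 (-0.33 to 0.40) and the RING subunit Rbx1 by -0.07 (-0.47 to 0.33). The intervals leave room for differences of less than about 0.5 on the log2 scale in these genes.

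Of the genes of the regenerative state, Clu, Ly6a, Anxa1 and Il1rn moved alike, higher in both models. Clu, the secreted chaperone clusterin, was at 6.67 and 3.06 CPM in WT and 31.1 and 43.2 CPM in KOIEC, and at 10.4 and 34.8 CPM in WT and 122 and 85.8 CPM in KOCAG. The groups were apart in both experiments, with log2 fold changes of 2.92 and 2.21 and a mean of 2.56 (adjusted p = 0.0461). Ly6a, a surface antigen known as Sca-1, was at 2.59 and 1.35 CPM in WT and 8.01 and 3.30 CPM in KOIEC, and at 2.60 and 2.55 CPM in WT and 29.9 and 15.4 CPM in KOCAG, a mean log2 fold change of 2.32 (adjusted p = 0.0494). Anxa1, the annexin that restrains inflammation, was at 1.79 and 0.641 CPM in WT and 12.8 and 2.80 CPM in KOIEC, and at 1.70 and 2.80 CPM in WT and 39.3 and 25.6 CPM in KOCAG. Its mean was 3.25 (1.97 to 4.54, adjusted p = 0.0494), with KOIEC libraries that differed several-fold from each other. Il1rn, the antagonist of the interleukin 1 receptor, had log2 fold changes of 1.69 and 2.89 (mean adjusted p = 0.0496).

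In the list of fetal-like and regenerative genes these 4 were among 19 of 20 tested genes that were higher in both models, the exception being Areg. In 11 of them the libraries were apart in the same direction in both experiments, where 18.9% of all genes tested were apart in the same direction and 7.77% in opposite directions. The median log2 fold change was 1.26 in KOIEC and 2.25 in KOCAG. In KOCAG's own fit 19 rose, where 18.1% of all genes did. The KOIEC median ranged from 0.69 without the first KOIEC library to 2.37 without the first WT library of that experiment, where it passed the KOCAG median of 2.21. The median difference of -0.64 ranged from -1.48 to -0.14 when these libraries were left out, and was -0.30 without the first KOCAG library.

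Other genes that were higher in both models came from several cell types. Clca1, a secreted protein of goblet cell mucus, was at 16.6 and 13.2 CPM in WT and 19.1 and 56.9 CPM in KOIEC, and at 139 and 151 CPM in WT and 704 and 634 CPM in KOCAG. Its mean of 1.78 passed the test (adjusted p = 0.0496), although the first KOIEC library lay close to WT. Fut2, the fucosyltransferase that decorates surface glycans, was at 2.04 and 2.71 CPM in WT and 6.33 and 4.88 CPM in KOIEC, and at 6.78 and 9.72 CPM in WT and 23.9 and 24.6 CPM in KOCAG (mean 1.40, adjusted p = 0.0401). S100a11, a calcium-binding protein, was at 79.5 and 48.8 CPM in WT and 141 and 119 CPM in KOIEC, and at 97.3 and 103 CPM in WT and 272 and 242 CPM in KOCAG (mean 1.19, adjusted p = 0.0401). In both genes the KO libraries lay above the WT libraries in either experiment. Id4, an inhibitor of bHLH factors, had log2 fold changes of 1.78 and 1.85, the carboxylesterase gene Ces2b 1.06 and 2.09, and Tsku, a secreted proteoglycan, 1.04 and 1.45. A pair of genes rested on very few reads. Arhgap40, a GTPase activator, had 1 count in each WT library of the KOIEC experiment and 22 and 14 in KOIEC, a ratio of 18.4 (counting interval 4.74 to 158). Fgf15, the ileal hormone that restrains bile acid synthesis, had 3 counts in each of these WT libraries and 21 and 8 in KOIEC, a ratio of 4.95 (2.02 to 14.6). The remaining 2 were the predicted genes Gm7457 and Gm15502, which are outside the naming rule.

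Among the 13 genes lower in both models, 10 met the rule for being named. Besides Cul4b and Lgr5 they included Gm32742, Prss23, Tgif2, Slc16a12, Colca2, Hemgn and Rpl21. Gm32742, a predicted gene on chromosome 9 close to Colca2, went from 35.6 and 50.8 to 7.30 and 13.8 CPM in KOIEC and from 115 and 93.3 to 26.4 and 33.3 CPM in KOCAG (mean -1.92, adjusted p = 0.0401). Colca2 itself went from 22.6 and 25.6 to 7.76 and 10.9 CPM and from 21.6 and 20.8 to 8.53 and 10.7 CPM (mean -1.25, adjusted p = 0.0401). These neighbours showed much the same size of response in both models. Tgif2, a repressor of TGF-beta signalling, went from 8.15 and 11.3 to 3.30 CPM in both KOIEC libraries and from 10.5 and 11.9 to 4.40 and 5.27 CPM in KOCAG (mean -1.38, adjusted p = 0.0401). Slc16a12, a transporter of the monocarboxylate family, had log2 fold changes of -1.16 and -1.37, the serine protease gene Prss23 -1.30 and -1.88, and Hemgn -1.11 and -1.37. Rpl21 of the large ribosomal subunit had -1.05 and -1.53, a value made uncertain by its many processed copies. C330021F23Rik, Zfp783 and Gm10614, which are outside the naming rule, were also among the 13.

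**Figure D3:**
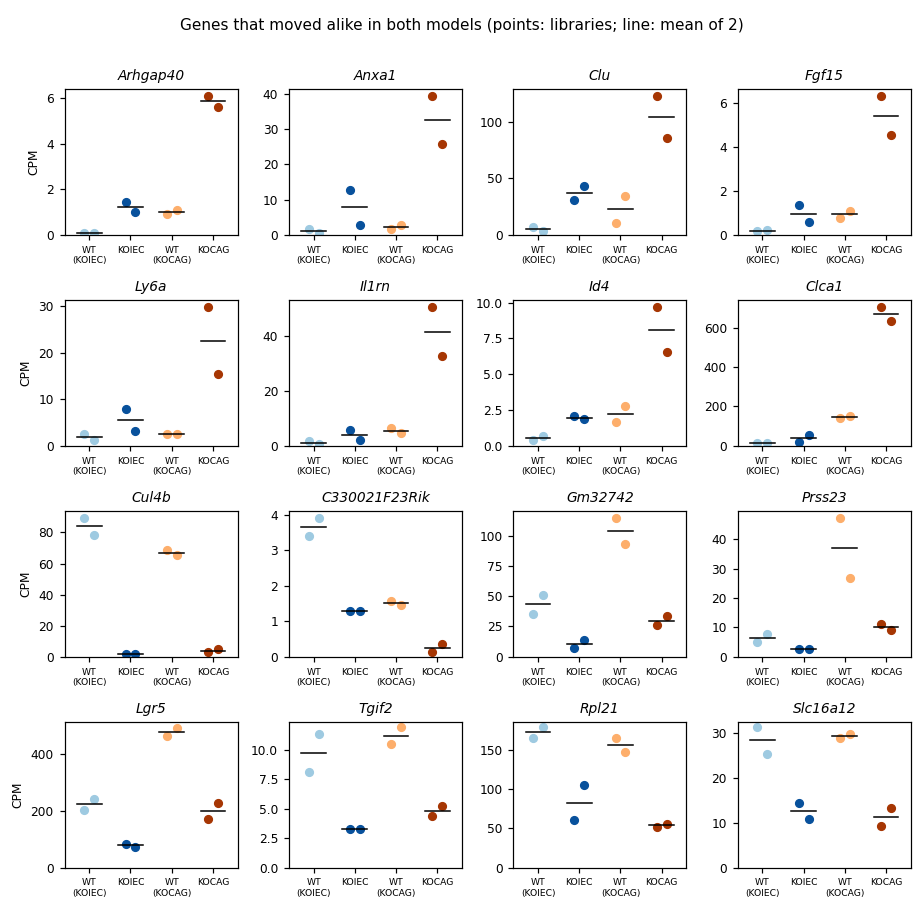
TMM-scaled CPM (y axis, from 0) of 8 genes higher and 8 genes lower in both models, among those with the largest mean log2 fold change, with 1 point per library and a line at the mean of each group's 2 libraries. Lgr5 lies between 74.4 and 83.5 CPM in KOIEC and between 171 and 227 CPM in KOCAG, below its WT libraries in both experiments.

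Genes of ribosomal proteins, mitosis and DNA replication were lower in both models at the median. For the last 2 of these lists the KOIEC median rested on the second library. Of 78 cytosolic ribosomal protein genes tested, 77 were lower in both models and 69 fell in KOCAG's own fit, where 13.4% of genes did. In 68 the libraries were apart downward in both experiments, while 18.9% of all genes tested were apart in the same direction, up or down. The medians were -0.30 in KOIEC and -0.57 in KOCAG, and the median difference of 0.27 was 0.32 and 0.24 without the first and the second KOIEC library. Only Rps27a, named because of its values, was not lower in both, at -1.44 and 0.24. Mitosis genes were lower in both models in 30 of 32 cases, with medians of -0.38 and -0.43, and 16 of them fell in KOCAG. Their median deviation was 0.15 in the first KOIEC library and -1.27 in the second. Without the first and the second KOIEC library their KOIEC median was -1.28 and 0.15, so its sign turned. The median difference of 0.03 became -0.89 and 0.60 in the same order. DNA replication genes were lower in both models in 36 of 39 cases, with 9 falling in KOCAG and medians of -0.63 and -0.22. Their median difference of -0.39 became -1.40 and 0.19 without the first and the second KOIEC library, and their KOIEC median -1.73 and -0.03. In KOIEC, 2 of 32 mitosis genes and 18 of 39 DNA replication genes had libraries apart downward, where 19.5% of all genes tested did. The KOCAG medians moved too, to -0.23 and -0.63 for mitosis genes and to -0.07 and -0.41 for DNA replication genes without the first and the second KOCAG library. The sign of both median differences turned with the KOIEC library left out. Mki67, the proliferation antigen and chosen here by its level, was at 336 and 369.6 CPM in WT and 445 and 196 CPM in KOIEC, and fell from 472 and 428 to 267 and 329 CPM in KOCAG.

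Hypoxia and glycolysis genes and the genes of sterol and fatty acid synthesis stood on the other side of the comparison, with a more positive response in KOIEC at the median. Of 30 hypoxia and glycolysis genes tested, 22 fell and 1 rose in KOCAG's own fit, where 13.4% and 18.1% of all genes did. Of the 30, 18 were higher in KOIEC and lower in KOCAG, as were 2842 of all 14957 genes tested. The medians were 0.13 and -0.73. The KOIEC median was 0.45 without the first KOIEC library and -0.43 without the second, so its sign rested on the second, and the median difference of 0.77 was 1.14 and 0.33. Ldha and Eno1, the most abundant members, carry out steps of glycolysis. Ldha was at 3792 and 3907 CPM in WT and 2996 and 5144 CPM in KOIEC, and fell from 1733 and 1710.4 to 1356 and 1429 CPM in KOCAG. Eno1 was at 2828 and 3246 CPM in WT and 1745 and 3450.1 CPM in KOIEC, and fell from 1649.7 and 1562 to 928 and 1033 CPM in KOCAG. The KOIEC libraries lay on both sides of WT in these genes. Of 29 genes of sterol and fatty acid synthesis, 21 were higher in KOIEC and lower in KOCAG and 18 fell in KOCAG, with medians of 0.21 and -0.35. The KOIEC median ranged from 0.09 to 0.33 over the libraries left out. All 29 had a positive difference, none of which was called, and the median of 0.58 was 0.69 and 0.38 without the first and the second KOIEC library. Scd2, a desaturase, was at 3984 and 2982 CPM in WT and 4832 and 5055 CPM in KOIEC, and fell from 1809 and 1994 to 1183 and 1348 CPM in KOCAG (difference 1.09, 0.52 to 1.67, adjusted p = 0.187).

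Markers of differentiated cells were higher in KOCAG, and in KOIEC mainly in the second library. Enteroendocrine markers were higher in both models in 20 of 23 cases, with medians of 0.54 and 1.08. In KOCAG's own fit 20 of them rose, where 18.1% of all genes did. The KOIEC median ranged from -0.39 to 1.08 over the libraries left out. Their median deviation was -0.26 in the first KOIEC library and 1.11 in the second, and the median difference of -0.57 was -0.08 and -1.39 without each, and -0.87 and -0.27 without the first and the second WT library of that experiment. Chgb, the granule protein chromogranin B, was at 193 and 349.6 CPM in WT and 190.5 and 682 CPM in KOIEC, and rose from 444 and 452 to 933 and 875 CPM in KOCAG. Enterocyte and brush border genes had medians of 0.20 and 0.93 over 30 genes, of which 23 rose in KOCAG, and genes of lipid absorption had medians of 0.25 and 1.10 over 22 genes, of which 20 rose. The median differences of -0.83 and -0.80 were -0.32 and -0.35 without the first KOIEC library and -1.34 and -1.28 without the second. The KOIEC medians turned to -0.20 and -0.22 without the second. Apoa1, an apolipoprotein of chylomicrons, was at 538 and 1102 CPM in WT and 555 and 1399 CPM in KOIEC, and rose from 548 and 622 to 3519 and 2544 CPM in KOCAG. Goblet cell markers had medians of 0.67 and 0.46 over 20 genes, with 12 rising and 2 falling in KOCAG and a median difference of 0.03. This was 0.43 and -0.38 without the first and the second KOIEC library, so its sign depended on the library left out, and the KOIEC median was 0.03 without the second.

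Interferon-stimulated genes and MHC genes were also higher in KOCAG at the median, while the interferon-inducible GTPases were not. Of 16 such GTPase genes 4 were tested, with medians of -0.14 in KOIEC and -0.23 in KOCAG, and 3 were lower in KOCAG. Their KOCAG median ranged from -0.32 to 0.05 when 1 library was left out. Of 31 interferon-stimulated genes tested, 17 rose in KOCAG, where 18.1% of all genes did. The medians were 0.14 in KOIEC and 1.30 in KOCAG. The median difference of -1.06 ranged from -1.63 without the first to -0.77 without the second WT library of the KOIEC experiment, and none of the 31 was called as differing. Among members with at least 10 counts in every library the KOCAG median was 0.64 and the median difference -0.62. MHC and antigen processing genes had medians of -0.07 and 0.66 over 22 of 26 genes, with 14 rising and 2 falling in KOCAG. H2-K1, an MHC class I heavy chain whose paralogs can share reads, was at 640.5 and 852 CPM in WT and 616 and 842 CPM in KOIEC, and rose from 569 and 562 to 1177 and 927 CPM in KOCAG (difference -0.93, -1.63 to -0.23, adjusted p = 0.299). Reg3b, an antibacterial lectin and a named member of the NF-kB and chemokine list, was at 19.7 and 85 CPM in WT and 29.7 and 56.0 CPM in KOIEC, and rose from 87.7 and 136 to 1394 and 1182 CPM in KOCAG. Its difference of -3.81 (-5.90 to -1.72) was large but did not pass the test (adjusted p = 0.197). Xenobiotic metabolism genes were higher in both models in 24 of 27 cases, with medians of 0.37 and 0.77 and 22 rising in KOCAG. The KOIEC median was 0.10 without the second KOIEC library.

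**Figure D4:**
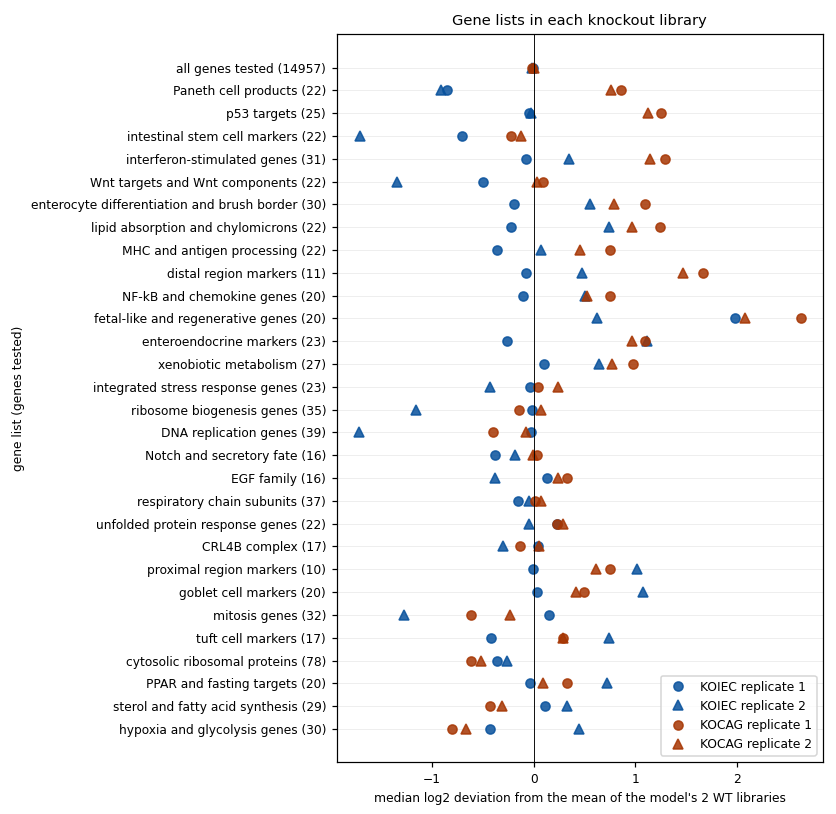
Median log2 deviation from the WT mean of each gene list with at least 10 tested genes, 1 symbol per KO library (circles replicate 1, triangles replicate 2, blue KOIEC, brown KOCAG). The KOCAG symbols lie close together, while the KOIEC symbols are far apart for DNA replication genes, at -0.03 and -1.72, and close for Paneth cell products, at -0.85 and -0.92.

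**Figure D5:**
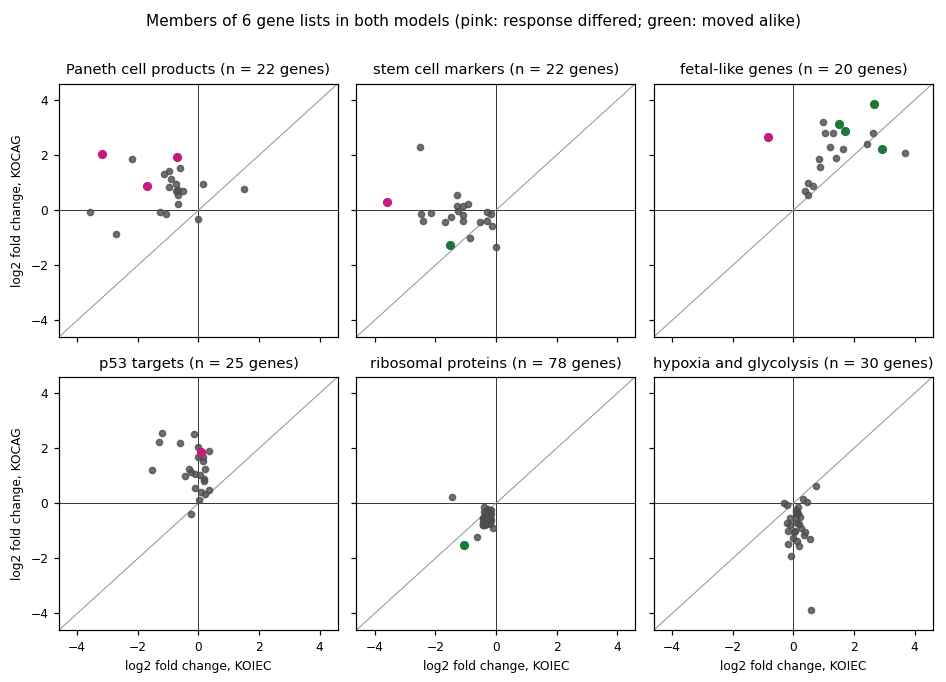
Log2 fold changes of the single genes of selected lists in KOIEC (x axis) and KOCAG (y axis), 1 point per gene. Paneth cell products lie mostly at the upper left (15 of 22 lower in KOIEC and higher in KOCAG), fetal-like and regenerative genes at the upper right (19 of 20), and cytosolic ribosomal proteins at the lower left (77 of 78).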

How the data were processed

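RNA of the 16 organoid and crypt samples was sequenced, and per the labels the authors deposited whole-number read counts per gene, not normalized, in a table for each experiment, beside gene length and annotation. Reads were aligned with HISAT2 2.0.5 and counted with featureCounts 1.5.0-p3, per the submitters' processing notes. The genome build, annotation release and strand setting are not given in the sources used here. Of the genes found in GENCODE M21 (GRCm38), 98.3% in the KOIEC table and 95.2% in the KOCAG table have the same start and end.

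Tables were joined by Ensembl identifier (54532 and 52636 genes, 52525 shared), since 4265 shared genes carry another symbol in the KOCAG table. Counts of the 8 organoid libraries were filtered (filterByExpr), scaled by TMM and fitted with edgeR 4.0.16 (R 4.3.3) in a quasi-likelihood model with a mean per group. The contrasts were the difference and the mean of both KO effects, with Benjamini-Hochberg adjustment over 14957 genes and two-sided tests. Genes that differed had adjusted p under 0.05 and a difference of at least 1 (log2), and genes that moved alike met the 3 conditions given in the report. Each experiment was also fitted by itself. CPM in the text are scaled by TMM, except the marker sums, which are per library total. Intervals of differences are 95%, unadjusted. Counting intervals and the 3-count floor cover counting error only. Totals were lower in the KOCAG experiment, yet its libraries varied less.

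Named were the CRL4B list, protein-coding called genes of at least 5 CPM in a group (up to 12 per direction), up to 4 members called as differing and up to 4 that moved alike in each list, and otherwise its 2 most abundant members. The comparison, members, tests and 35 lists were chosen with earlier results of these data known. No list was tested. The fit was tested on simulated counts. Alternatives used DESeq2 1.42.0, limma 3.58.1, other scalings, filters, a replicate block and leaving out each library. No library pair held the same counts. A gene of those that met the naming rule is not reported here.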

Additional observations from a re-analysis of the deposited data

Results flagged for a closer look

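The 11 genes whose response to Cul4b loss differed between the models by the test of the difference are given here by the difference of log2 fold changes, KOIEC minus KOCAG. It was -5.24 for Pla2g2a, -4.83 for Abcb1b, -3.89 for Ascl2 and -3.50 for Areg. It was -2.65 for Ang4, -2.58 for Defa20, -2.21 for Defa34, -1.98 for Rnase1 and -1.78 for Sesn2. The pseudogenes 9130208D14Rik and Gm8979 stood at 2.04 and 2.94. Groups of 2 libraries are too small for a check of single libraries that stand apart.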

How the results depend on the processing

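The 11 called differences kept their sign in every alternative that tested the gene. Of the other 88 named differences, none called, 37 changed sign in some alternative, as did 13 of 35 list median differences, among them those of mitosis, DNA replication and goblet genes. The number of genes called did not hold. With all libraries, 9 genes had a more negative and 2 a more positive response in KOIEC, and 14 were higher and 13 lower in both models. Without any filter on low counts 486 and 203 genes differed, and 94 and 62 moved alike. DESeq2's Wald test gave 164 and 65, and 59 and 35. With all 16 libraries in the fit 30 and 23 differed, of which 7 were among the 11, and 34 and 33 moved alike. Library size alone gave 5 and 3, DESeq2 size factors 3 positive, voom 3 positive and 5 higher in both models, and at least 10 counts in every library 1 positive. Without a minimum fold 116 and 56 moved alike. Leaving out 1 library gave 0 to 988 negative and 0 to 451 positive differences, and 0 to 218 higher and 1 to 85 lower genes in both models. The wide counts came without a KOIEC library, the count of 0 without any other. The replicate numbers are shared by the groups, but same-numbered libraries correlated in their deviations by 0.306 in KOIEC and 0.063 in KOCAG, over 2 pairs each, and nothing says that they were paired. With a replicate block 2 genes differed with a negative and 0 with a positive sign (Areg and Ang4, with 2028 genes at an unadjusted p under 0.05), and 7 and 6 moved alike. Of 629 recomputed list medians, 528 stayed within 1 SD between replicates and 101 moved by more, 47 of these without a KOIEC library. Causes were not tested, and 2 libraries per group limit all of these counts.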

Other observations

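The same genes were looked up in the crypts of the series, which compared freshly isolated KOIEC and WT crypts, as a description with no test. Of the 27 genes that moved alike in both organoid models, 22 had the same direction in crypts, and in 5, among them Cul4b, Lgr5, Clca1 and Gm15502, KO and WT crypt libraries were also apart in that direction. In none were they apart the other way. Among all genes tested that had the same sign in both organoid models, 76.1% had that direction in crypts and 16.1% were apart in it, so the counts are near the background. All 13 lower genes, which include the deleted Cul4b, were lower in crypts, and the 5 exceptions were among the 14 higher genes. The share over all genes was not computed for each direction, so the directions are not compared. Lgr5 ranged from 24.1 to 27.5 CPM in WT crypts and from 12.7 to 18.6 CPM in KO crypts. Clca1 ranged from 451 to 724 CPM in WT crypts and from 873 to 3062 CPM in KO crypts. Clu, higher in both organoid models, had a log2 difference of -1.82 in crypts at levels of 0.153 to 2.53 CPM. The other exceptions were Fut2 at -0.65, Id4 at -0.60, Anxa1 at -0.38 and S100a11 at -0.27, with WT and KO crypt libraries that overlap in all 5 genes.

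Of the 11 genes whose response differed, 7 had the direction of KOIEC organoids in crypts. Among all genes tested with opposite signs in the organoid models, as 9 of the 11 had, 61.6% had that direction, 9.59% were apart in it and 4.24% were apart in the direction of KOCAG. Ascl2 was the only one of the 11 apart in the direction of KOIEC, at 12.3 to 17.3 CPM in WT and 6.77 to 10.9 CPM in KO crypts. Areg was apart in the direction of KOCAG, at 0.478 to 2.77 CPM in WT and 3.56 to 11.1 CPM in KO crypts. Defa20 ranged from 242 to 987 CPM in WT and from 9.13 to 545 CPM in KO crypts, which overlap.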
